A study of Homo sapiens with 9 samples.

Results

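Interferon-stimulated genes are described here by 41 named members, chosen by symbol and found among the 60719 Ensembl genes of a gene-level transcript table. All 41 had a row, DDX58 under its newer symbol RIGI, and 39 had at least 1 TPM (a transcript level scaled for transcript length and library total) in at least 3 of the 9 libraries. OAS1 and CXCL10 did not reach this minimum and were not tested. The cells were wild-type MDA-MB-231, an established human breast cancer line, and total RNA was sequenced after 72 h of culture in 5% exo-free media. In 3 libraries the recipient cells were cultured without small extracellular vesicles (No sEV). In 3 they received vesicles labelled Cont sEV, and in 3 they received vesicles labelled TIS sEV, for therapy-induced senescence. Donors of the vesicles were MDA-MB-231 cells given DMSO or 100 ng/ml nocodazole, a microtubule inhibitor, for 72 h and then released for another 72 h into exo-free media, from which the vesicles were collected by differential centrifugation. By the order in which the labels list them, Cont sEV come from DMSO donors and TIS sEV from nocodazole donors, and other effects of nocodazole on donors cannot be told apart from senescence. All groups thus share 1 cell line and 1 exposure time, and the labels do not say whether the replicates were separate cultures. The p-values therefore measure only how far these samples spread, and that spread may be technical.

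Interferons are secreted proteins that cells release when they sense foreign or misplaced nucleic acid. Type I interferon binds the IFNAR1 and IFNAR2 receptor, whose kinases JAK1 and TYK2 activate a complex of STAT proteins with IRF9. That complex binds the interferon-stimulated response element (ISRE) in promoters and induces a large set of genes, many of which block viral RNA, proteins or membranes. Some breast cancer cells express a share of these genes without added interferon, and RNA carried by vesicles is known as a possible trigger of the RNA sensors.

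The promoters of the most abundant members are shown because they carry the element that ties these genes together. RefSeq windows from 250 bases before to 50 bases after the gene start (build GRCh38.p14) were found for 34 of the 41 members. The ISRE core was searched on both strands as GAAA, any 2 bases and GAAA again. It occurred in 23 of 34 member windows (67.7%) and in 1255 of 35116 windows of all genes (3.57%). The core of the gamma-activated site, TTC, any 3 bases and GAA, which reads the same on both strands, occurred in 9 of 34 member windows (26.5%) and in 7.66% of all windows. A match is a run of letters and not a measured binding site. The 250 bases before the gene start of the 4 most abundant members with a match are given 5′ to 3′ on the gene's strand, with ISRE core matches in capitals.
IFITM3 promoter, chr11:320861-321110, minus strand: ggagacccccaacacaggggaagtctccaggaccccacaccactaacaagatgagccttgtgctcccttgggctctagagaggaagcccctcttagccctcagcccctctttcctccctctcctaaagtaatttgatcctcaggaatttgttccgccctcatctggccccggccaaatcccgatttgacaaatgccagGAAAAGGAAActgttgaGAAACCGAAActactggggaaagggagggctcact
BST2 promoter, chr19:17405631-17405880, minus strand: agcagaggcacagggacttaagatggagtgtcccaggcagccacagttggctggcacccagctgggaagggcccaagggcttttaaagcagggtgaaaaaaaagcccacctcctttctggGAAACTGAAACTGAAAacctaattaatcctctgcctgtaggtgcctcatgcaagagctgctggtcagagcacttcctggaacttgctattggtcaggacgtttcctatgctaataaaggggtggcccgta
ISG15 promoter, chr1:1013247-1013496, plus strand: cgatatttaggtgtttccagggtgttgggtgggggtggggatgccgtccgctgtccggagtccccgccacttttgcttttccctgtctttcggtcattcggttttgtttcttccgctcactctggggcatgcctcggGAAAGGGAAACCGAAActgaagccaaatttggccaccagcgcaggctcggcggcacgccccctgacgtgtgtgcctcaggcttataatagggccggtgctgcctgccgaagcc
IFITM1 promoter, chr11:313790-314039, plus strand: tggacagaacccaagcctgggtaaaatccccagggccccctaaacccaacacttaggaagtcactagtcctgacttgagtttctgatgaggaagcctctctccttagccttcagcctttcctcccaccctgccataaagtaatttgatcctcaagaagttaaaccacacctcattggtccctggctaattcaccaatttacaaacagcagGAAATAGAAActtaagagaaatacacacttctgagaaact
In IFITM3 the 2 matches began at positions -52 and -35, counted from the gene start. In BST2 and in ISG15 the 2 matches overlapped each other, beginning at -130 and -124 and at -113 and -107. IFITM1 had a match at -40 and another at -6 that runs past the start and is not capitalised. Across the 23 windows there were 41 matches, of which 40 began before the gene start.

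**Figure D1:**
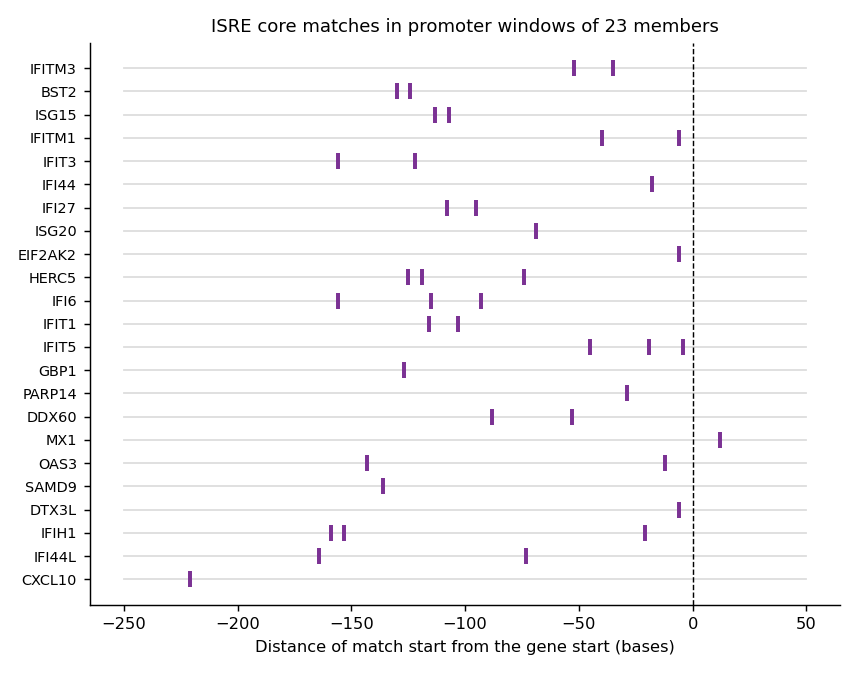
Start of each ISRE core match (purple tick) relative to the gene start (dashed line, x axis in bases) in the promoter windows of the 23 members that held 1, ordered by transcript level with the highest on top. 38 of the 41 matches began between positions -160 and -1, and the match of MX1 began at 12.

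The libraries resembled each other closely. Pearson's r over the 13879 tested genes was 0.991 to 0.994 between any 2 libraries, and no 2 were identical. TIS sEV replicate 3 stood somewhat apart: over 3386 genes with a mean of 50 TPM or more, log2 differences had an SD of 0.131 to 0.153 in pairs that include it and of 0.0777 to 0.132 in the remaining pairs. Markers of the line were present, with VIM at 2249 TPM on average and all 7 markers expected to be high above 100 TPM. ESR1, PGR and CDH1 were below 1 TPM, while ERBB2 and EPCAM were at 28.1 and 23.02 TPM, although both were listed as low in this line. The 20 markers of leukocytes, plasmacytoid dendritic cells, endothelium and fibroblasts summed to 5.49 to 7.29 TPM with No sEV, 6.63 to 7.42 with Cont sEV and 6.36 to 6.77 with TIS sEV. Of these markers 5 were listed at 0 in all 9 libraries, among them LILRA4 and CLEC4C, which mark plasmacytoid dendritic cells. CD14 (2.99 TPM on average) and PECAM1 (1.78 TPM) were the 2 that reached the minimum for testing, and 0 passed the test given below. No 2 groups overlapped for PECAM1, at means of 1.83 TPM with No sEV, 2.07 with Cont sEV and 1.45 with TIS sEV. Of all tested genes, 0.749% had the 3 groups apart. In bulk RNA, a change in the number of expressing cells and a change per cell cannot be told apart.

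Most members were transcribed in every group, with No sEV included. The mean over 9 libraries was at least 10 TPM for 28 of 41 members, at least 100 TPM for 5 and below 1 TPM for 3. The most abundant were the membrane proteins IFITM3 (577 TPM) and BST2 (406 TPM), which hinder virus entry and virus release, and the ubiquitin-like modifier ISG15 (297 TPM). Their levels exceeded those of 98.3%, 97.7% and 96.5% of tested genes. At the other end were the chemokine gene CXCL10 (0.623 TPM), the RNA-activated synthetase gene OAS1 (0.829 TPM) and IFI44L (0.974 TPM). Neighbouring genes of 1 family differed widely: IFI44 was at 68.2 TPM and IFI44L, beside it on chromosome 1, at 0.974 TPM, and MX1 was at 10.4 against 1.77 TPM for MX2.

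**Figure D2:**
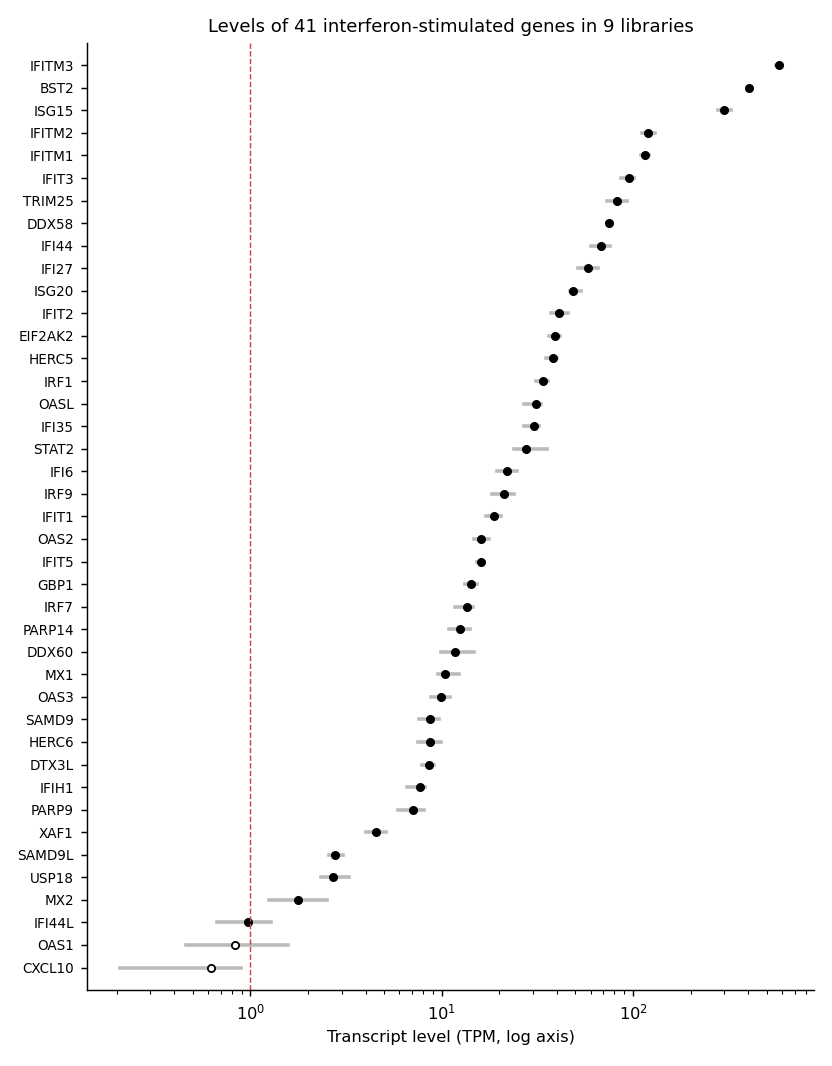
Mean transcript level over 9 libraries (point) and the range from lowest to highest library (grey bar) of the 41 members on a log axis in TPM, with 1 TPM as a dashed line and the 2 untested members as open points. Levels run from 0.623 TPM for CXCL10 to 577 TPM for IFITM3, and the ranges within a gene are narrow beside the distances between genes.

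The comparisons ask whether vesicles, and vesicles from nocodazole-treated donors in particular, moved these genes in recipient cells. None of the 39 tested members passed the moderated test of limma, with p-values adjusted by Benjamini-Hochberg over all genes, in TIS sEV vs Cont sEV (lowest adjusted p = 0.229), TIS sEV vs No sEV (0.298) or Cont sEV vs No sEV (0.705). Over all 13879 genes, 0.0937%, 0.00721% and 0.0% passed in these comparisons, and 0.0432% passed as higher in the first. With an unadjusted p under 0.05 there were 1, 6 and 6 members, against 10.0%, 7.97% and 6.03% of all genes. In the F test over the 3 groups 0 members passed, where 0.0216% of all genes did. The F test gave 7 of 39 members (ISG15, IFIT2, IFIT3, OASL, IFITM3, IFI27 and IFI44) and 8.72% of all genes an unadjusted p under 0.05. The 95% confidence intervals of the members' log2 fold changes extended a median of 0.145 to each side on the log2(TPM + 1) scale. In TIS sEV vs Cont sEV no interval reached beyond -0.51 or 0.49, and differences within these bounds could be present in single genes without passing.

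The lowest adjusted p of any member was that of ISG15 in TIS sEV vs Cont sEV. The lowest in TIS sEV vs No sEV were those of IFI44, OASL and IFIT3. Among their tested relatives, IFIT2 had an unadjusted p of 0.0456 in limma's test. For IFIT1, IFIT5, OAS2, OAS3 and IFI44L the unadjusted p-values were from 0.323 (OAS3) to 0.953 (IFIT5). IFIT3, a binding partner of IFIT1, was at 86.9, 91.3 and 88.4 TPM in the 3 No sEV libraries, at 101, 96.9 and 96.3 TPM with Cont sEV and at 95.7, 101 and 96.6 TPM with TIS sEV. All 6 vesicle libraries lay above the 3 without vesicles, and the vesicle groups overlapped each other. The log2 fold change of IFIT3 was 0.14 in both vesicle comparisons with No sEV (SE 0.03; limma, adjusted p = 0.416 for TIS sEV and 0.705 for Cont sEV) and -0.003 between TIS sEV and Cont sEV.

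OASL, a relative of the oligoadenylate synthetases that lacks their enzyme activity and enhances RIG-I signalling, had the same arrangement. It was at 29.4, 26.8 and 29.1 TPM with No sEV, at 32.0, 32.2 and 32.9 TPM with Cont sEV and at 33.2, 31.4 and 32.7 TPM with TIS sEV. The vesicle libraries again lay above all of those without vesicles, with a log2 fold change of 0.19 for TIS sEV (95% interval 0.08 to 0.29, limma, adjusted p = 0.391) and 0.18 for Cont sEV (adjusted p = 0.705). Both comparisons use the same 3 No sEV libraries, so their likeness is not independent.

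IFI44, an interferon-induced cytoplasmic protein gene, was at 63.6, 65.1 and 59.97 TPM with No sEV, at 70.9, 70.1 and 65.9 TPM with Cont sEV and at 70.2, 75.7 and 72.6 TPM with TIS sEV. The No sEV libraries lay below the others, Cont sEV replicate 3 being the nearest to them, and the vesicle groups overlapped. Its log2 fold change of 0.21 in TIS sEV vs No sEV (95% interval 0.11 to 0.31) was the highest of the members in that comparison, and it did not pass (limma, adjusted p = 0.298). DDX58, which encodes the RNA sensor RIG-I, was the fourth member with both vesicle groups above No sEV, by a narrow margin. It was at 73.2, 73.4 and 72.98 TPM with No sEV, 76.8, 73.5 and 75.1 TPM with Cont sEV and 76.0, 77.5 and 75.8 TPM with TIS sEV. Of all tested genes, 1.89% had both vesicle groups wholly above No sEV, and of the 39 members 4 did.

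IFIT2, which binds AU-rich RNA, lay wholly above No sEV in the Cont sEV libraries and not in those of TIS sEV. It was at 37.1, 39.8 and 38.3 TPM with No sEV, at 44.6, 42.4 and 42.7 TPM with Cont sEV and at 39.3, 45.98 and 41.2 TPM with TIS sEV. The first TIS sEV library lay within the No sEV range and the second was the highest of all 9. The log2 fold change of IFIT2 in TIS sEV vs No sEV was 0.13 and without TIS sEV replicate 2 it was 0.07 (limma, adjusted p = 0.622 and 0.842). The other IFIT genes, IFIT1 and IFIT5, were at group means of 18.3 to 19.5 TPM and 16.0 to 16.1 TPM. All 4 IFIT genes are neighbours on chromosome 10, IFIT2 from 89283694 to 89309276, IFIT3 from 89327894 to 89340971, IFIT1 from 89392546 to 89406486 and IFIT5 from 89414586 to 89421001 (GENCODE 29, GRCh38). In TIS sEV vs Cont sEV 1 of the 4 was higher and 3 lower, with a median of -0.02.

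ISG15 was the member whose TIS sEV libraries lay above those of both other groups, and IFITM3, given further on, the one whose TIS sEV libraries lay below both. ISG15 (chromosome 1, 1001138 to 1014540) encodes a modifier that is attached to newly made proteins by HERC5 and removed by USP18. It was at 307, 279.9 and 283 TPM with No sEV, at 289, 287 and 279 TPM with Cont sEV and at 309, 315 and 327 TPM with TIS sEV. The 3 TIS sEV libraries were the highest of the 9, although No sEV replicate 1 came within 3 TPM of the lowest of them. Against Cont sEV the log2 fold change was 0.15 (SE 0.04, 95% interval 0.07 to 0.24, limma, adjusted p = 0.229), or 1.11-fold, and against No sEV it was 0.13 (adjusted p = 0.495). Between Cont sEV and No sEV it was -0.02 (95% interval -0.11 to 0.06).

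The other members grouped with ISG15 gave no such separation. Pathway genes outside the members are counted further on. HERC5, the main ISG15 ligase, was at 37.3, 37.4 and 39.1 TPM on average in the No, Cont and TIS sEV groups, and TRIM25, a ubiquitin ligase that also activates RIG-I, at 79.5, 83.1 and 85.2 TPM. HERC6 stayed between group means of 8.62 and 8.65 TPM. USP18, the ISG15 protease and a brake on the interferon receptor, was at group means of 2.67 to 2.74 TPM. USP18 shares 28.8% of its 31-base transcript stretches with its copy USP41, so its reads can be divided between them.

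Lower values with vesicles were found for IFITM3 and IFI27. IFITM3, which blocks fusion of virus with endosomal membranes, was at 597, 587 and 589 TPM with No sEV, at 575, 569.9 and 580.0 TPM with Cont sEV and at 569, 562 and 566 TPM with TIS sEV. No 2 groups overlapped, with No sEV highest and TIS sEV lowest, an order singled out after its values were seen. It was the member with all 3 groups apart, where 0.749% of tested genes had them apart in any order. The differences were small: the log2 fold change was -0.06 in TIS sEV vs No sEV (95% interval -0.11 to -0.02, limma, adjusted p = 0.538) and -0.04 in Cont sEV vs No sEV. IFI27, a small mitochondrial and nuclear envelope protein gene, was at 65.6, 62.6 and 58.3 TPM with No sEV, at 55.3, 51.6 and 56.7 TPM with Cont sEV and at 56.3, 55.2 and 61.7 TPM with TIS sEV. Its Cont sEV libraries lay below those of No sEV (log2 fold change -0.19, limma, adjusted p = 0.789), and those of TIS sEV overlapped both.

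Other membrane effectors were level. BST2 (tetherin) was at 405 ± 9.78 TPM (SD, n = 3) with No sEV, 404 ± 4.92 with Cont sEV and 409 ± 9.28 with TIS sEV, and its spread over all 9 libraries was the smallest of the members, at a coefficient of variation of 1.85%. IFITM1 was at group means of 113 to 118 TPM and IFITM2 at 117 to 122 TPM. These paralogs lie side by side on chromosome 11, and 36.4% of the 31-base transcript stretches of IFITM3, 35.3% of those of IFITM1 and 45.2% of those of IFITM2 also occur in other genes. Their separate levels carry that uncertainty.

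**Figure D3:**
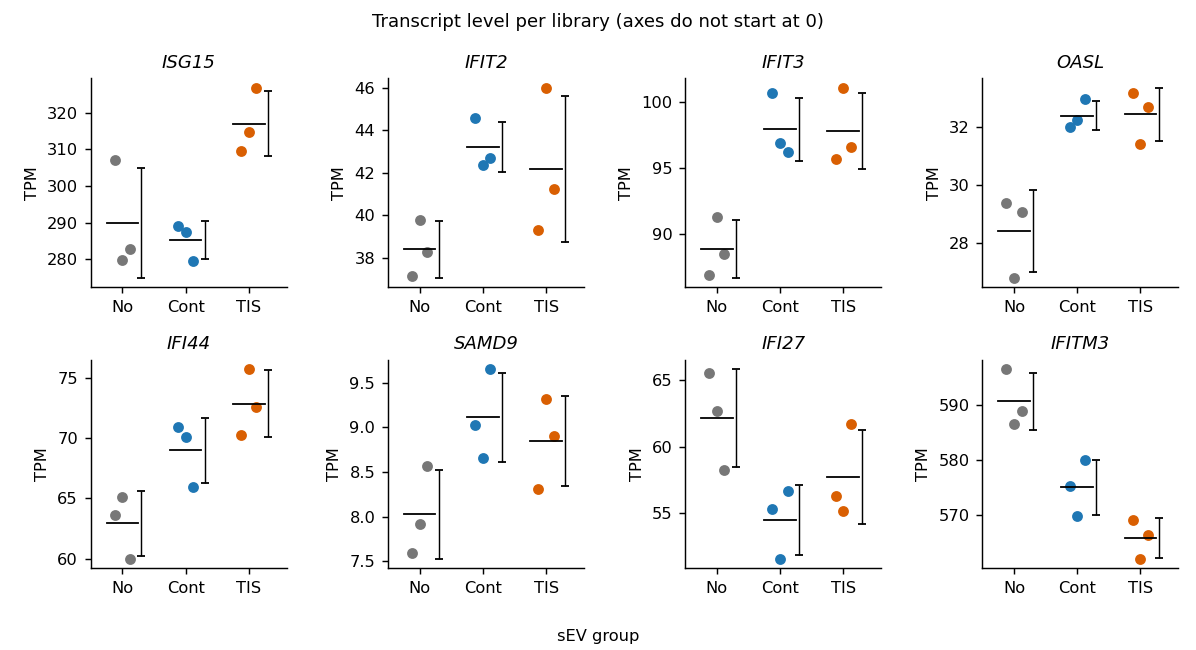
Transcript level in TPM of the 8 members with an unadjusted p under 0.05 in at least 1 comparison, 1 point per library, by sEV group (grey No, blue Cont, orange TIS), with the group mean as a line and the SD as a bar, on axes that do not start at 0. IFIT3, OASL and IFI44 have both vesicle groups above No sEV, ISG15 has TIS sEV above both others, and IFITM3 steps down from No to Cont to TIS.

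The transcription factors of the pathway had slightly higher means with TIS sEV, without passing. IRF1, a factor induced by interferon gamma, was at 31.2, 33.8 and 35.1 TPM with No sEV, at 32.7, 34.0 and 32.5 TPM with Cont sEV and at 35.1, 35.6 and 36.1 TPM with TIS sEV. Its TIS sEV libraries lay above those of Cont sEV and overlapped those of No sEV (log2 fold change against Cont sEV 0.10, limma, adjusted p = 0.511). STAT2 was at group means of 25.9, 27.0 and 29.8 TPM in the No, Cont and TIS sEV groups, with TIS sEV replicate 2 at 35.4 TPM and the other TIS sEV libraries at 27.8 and 26.1 TPM. IRF9, the DNA-binding subunit that joins the STAT proteins, was at 20.6 to 21.9 TPM, and IRF7, the amplifier of interferon gene transcription, at 13.3 to 14.2 TPM. All 4 were higher in TIS sEV vs Cont sEV (median on the log2 scale 0.10), as were 59.6% of all genes. Another annotated gene covers 48.4% of the exon bases of IRF9 on the same strand, and IRF1-AS1 covers 22.0% of those of IRF1 on the opposite strand. No source used here says whether the counting used strand, so reads of IRF1 and its antisense gene cannot be told apart.

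Among the other RNA sensors, IFIH1 (MDA5) was at group means of 7.30, 7.78 and 7.95 TPM in the No, Cont and TIS sEV groups. DDX60, a helicase that assists RIG-I, was at 11.99, 10.6 and 12.7 TPM, and had the widest difference between the vesicle groups (log2 fold change 0.23, 95% interval -0.02 to 0.49, limma, adjusted p = 0.538). Effectors that act on RNA were close to level. The kinase EIF2AK2 (PKR), which halts translation on double-stranded RNA, was at 38.6 to 39.3 TPM. The exonuclease ISG20 was at 46.6, 47.2 and 47.6 TPM with No sEV, at 50.9, 53.4 and 46.6 TPM with Cont sEV and at 48.7, 47.7 and 50.9 TPM with TIS sEV. Its TIS sEV libraries lay just above those of No sEV and within the range of Cont sEV. The synthetases OAS2 and OAS3, which activate RNase L, were at 15.7 to 16.3 TPM and 9.67 to 10.3 TPM. OAS1 was at 0.484 to 0.603 TPM with No sEV, 0.458 to 1.35 TPM with Cont sEV and 0.826 to 1.57 TPM with TIS sEV, too low to be tested.

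The dynamin-like GTPases MX1 and MX2, which trap viral capsids, and the guanylate-binding protein GBP1 did not separate the groups. GBP1 was at 14.2, 13.8 and 14.1 TPM with No sEV, at 14.98, 13.3 and 14.5 TPM with Cont sEV and at 13.7, 15.3 and 14.9 TPM with TIS sEV. MX1 was at group means of 10.1 to 10.8 TPM, and MX2 at 1.59 to 1.91 TPM.

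PARP14, an ADP-ribosyltransferase, was at 10.9, 12.45 and 11.6 TPM with No sEV, at 13.98, 11.0 and 12.35 TPM with Cont sEV and at 13.55, 12.55 and 13.97 TPM with TIS sEV. Its TIS sEV libraries lay above those of No sEV (log2 fold change 0.18, limma, adjusted p = 0.639), and Cont sEV spanned both. PARP9 and its ubiquitin ligase partner DTX3L, neighbours on opposite strands of chromosome 3, were at group means of 6.88 to 7.42 TPM and 8.43 to 8.67 TPM.

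SAMD9, which restricts poxviruses, was at 7.59, 7.91 and 8.57 TPM with No sEV, at 9.02, 8.66 and 9.65 TPM with Cont sEV and at 8.31, 9.31 and 8.90 TPM with TIS sEV. The Cont sEV libraries lay above No sEV (log2 fold change 0.16, limma, adjusted p = 0.807), and TIS sEV overlapped both. Its neighbour SAMD9L was at 2.71 to 2.81 TPM. IFI6, which protects endoplasmic reticulum membranes, was at group means of 21.5 to 22.7 TPM, IFI35 at 29.04 to 31.3 TPM, the pro-apoptotic gene XAF1 at 4.34 to 4.81 TPM and IFI44L at 0.906 to 1.07 TPM. CXCL10, which attracts T cells, was at 0.569, 0.468 and 0.207 TPM with No sEV, at 0.891, 0.8904 and 0.651 TPM with Cont sEV and at 0.791, 0.616 and 0.519 TPM with TIS sEV. The Cont sEV libraries lay above those of No sEV at levels under the test's minimum.

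Counted together, 31 of 39 members (79.5%) had a higher mean log2 level with TIS sEV than with No sEV, where 66.7% of all genes did. Their median was 0.06 on the log2 scale, and that of all genes 0.03. In this comparison 5 members were higher and 1 lower at an unadjusted p under 0.05, against 6.33% and 1.64% of all genes. The 3 TIS sEV libraries lay wholly above the 3 No sEV libraries for 9 members (23.1%), where 11.3% of all genes did so, and wholly below for IFITM3 (2.77% of all genes). After median-of-ratios rescaling, which brings the median over all genes close to 0, the wholly higher members were 4, DDX58, IFIT3, OASL and IFI44, against 5.46% of all genes, and 2 were wholly lower, IFITM3 and IFI35, against 6.16%. The median of the members was then 0.0230, with 26 of 39 higher. The counts of separated libraries after rescaling, here and in the other comparisons, were added after the data were seen.

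In Cont sEV vs No sEV, 24 of 39 members were higher, with a median of 0.02 against 0.01 over all genes, where 56.5% were higher. IFIT2, IFIT3, OASL, IFI44 and SAMD9 were higher and IFI27 lower at an unadjusted p under 0.05, which held for 3.53% and 2.5% of all genes. The Cont sEV libraries lay wholly above No sEV for 6 members, DDX58 and the 5 just named, and wholly below for IFITM3 and IFI27, as they did for 6.72% and 4.47% of all genes. After median-of-ratios rescaling 5 lay wholly above, without IFI44, and the same 2 wholly below, against 5.51% and 6.38% of all genes. The median was -0.0101 after quantile normalization, with 18 of 39 higher. Without Cont sEV replicate 2 it was 0.0464, and without Cont sEV replicate 1, where 3 members were at an unadjusted p under 0.05, it was 0.0019.

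In TIS sEV vs Cont sEV, 24 of 39 members were higher, with a median of 0.02 beside 0.02 over all genes, and 19 members lay above the median of all genes. ISG15 was the member with an unadjusted p under 0.05, while 7.07% of all genes were higher and 2.93% lower at that threshold. After median-of-ratios rescaling 19 of 39 were higher, with a median of -0.0044. The TIS sEV libraries lay wholly above Cont sEV for 2 members, ISG15 and IRF1, and wholly below for IFITM3, where 10.9% and 4.47% of all genes did so, or 15.4% in either direction. After rescaling they lay wholly above for ISG15 and wholly below for IFIT1 and IFITM3, where 7.59% and 7.2% of all genes did so, and IRF1 was no longer separated.

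**Figure D4:**
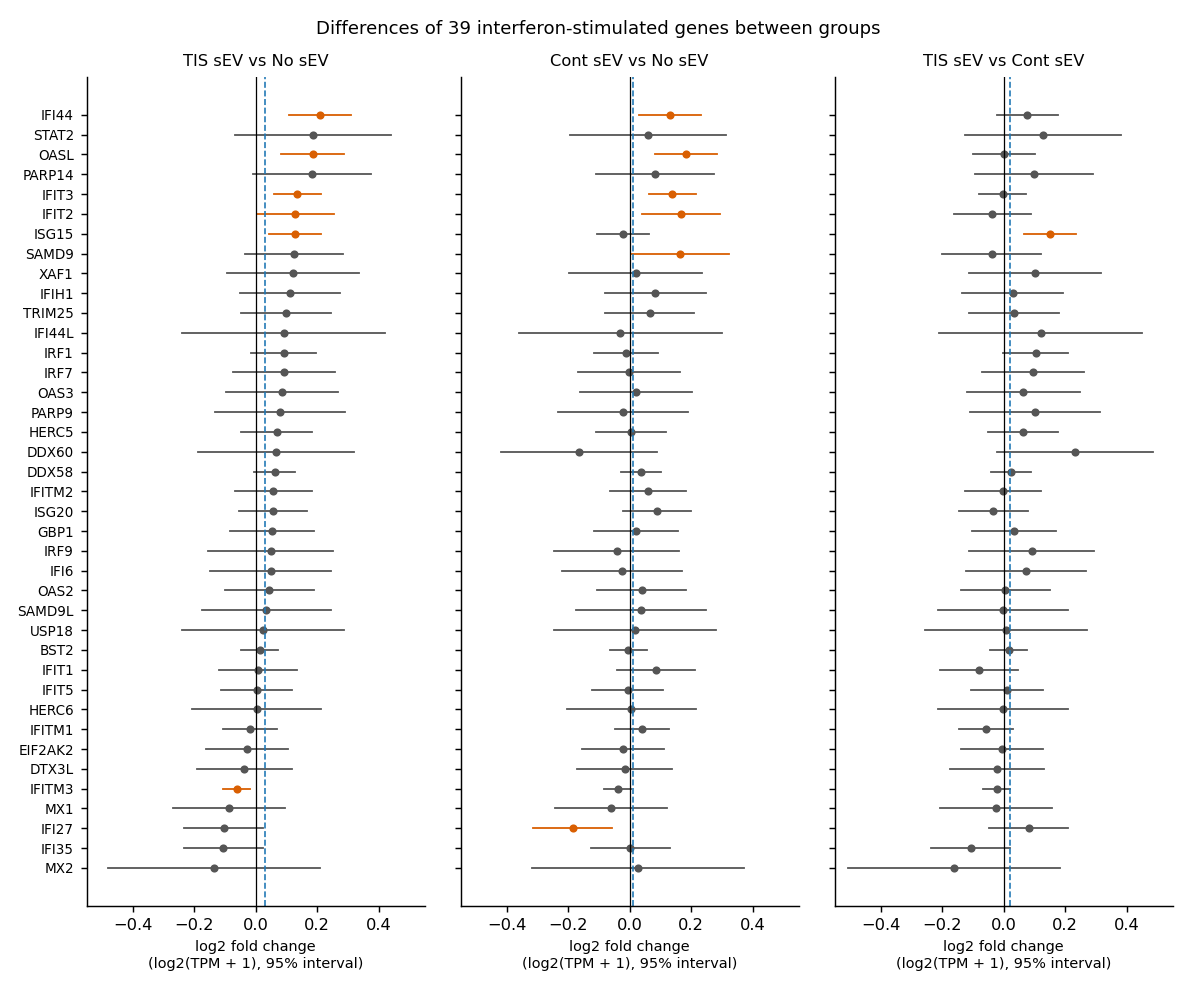
Log2 fold change on the log2(TPM + 1) scale of the 39 tested members in the 3 comparisons, with 95% intervals as lines, orange for an unadjusted p under 0.05, and the median of all 13879 genes as a dashed blue line. IFI44 leads in TIS sEV vs No sEV at 0.21, the OASL values against No sEV are nearly equal in both vesicle groups, and ISG15 stands out in TIS sEV vs Cont sEV at 0.15.

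By library, the median deviation of the members from their own 9-library means was -0.0293 to -0.0217 with No sEV, -0.0108 to 0.0440 with Cont sEV and 0.0196 to 0.0416 with TIS sEV, on the log2 scale. The No sEV libraries lay below the other 6. The same median over all tested genes was -0.0209 to -0.0051 with No sEV, -0.0294 to 0.0142 with Cont sEV and 0.0088 to 0.0279 with TIS sEV. Over all genes Cont sEV replicate 2 was the lowest of the 9 libraries, below those of No sEV. After median-of-ratios rescaling the members' medians were -0.0181 to -0.0041 with No sEV, 0.0014 to 0.0273 with Cont sEV and 0.0082 to 0.0115 with TIS sEV. Transcripts of the mitochondrial genome made up 2.47 to 2.92% of the summed TPM with No sEV, 2.58 to 3.39% with Cont sEV and 2.07 to 2.52% with TIS sEV. With these left out and TPM rescaled, the members' median in TIS sEV vs No sEV was 0.0514.

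**Figure D5:**
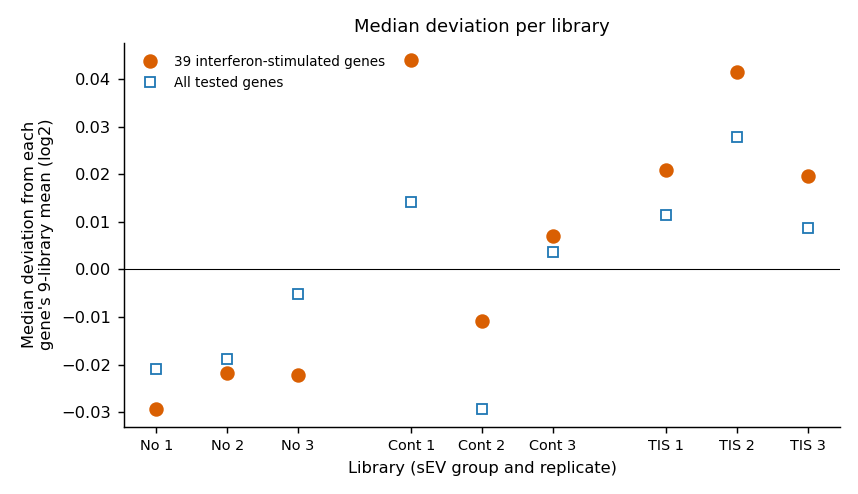
Median over genes of the deviation from each gene's 9-library mean, on the log2(TPM + 1) scale, per library, for the 39 tested members (orange) and all 13879 tested genes (blue squares). Members and all genes both lie below 0 in the 3 No sEV libraries and above 0 in the 3 TIS sEV libraries.

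Pairs of members went both ways across the libraries. Over the 34 members of at least 5 TPM, the mean pairwise Pearson's r across the 9 libraries was 0.073, against 0.054 over all 10483 genes at that level. These points share library composition and group means, so the values describe these libraries. The highest r of any pair was 0.958, for EIF2AK2 and DTX3L, whose libraries overlapped between all groups. IFIT2 and IFIT3 had an r of 0.93, IFIT3 and IFI44 0.88, and IFITM3 and IFI44 -0.91. These pairs were picked for their extreme values. With the mean of the other 33 members, DDX58 had an r of 0.942, IFIT3 of 0.784 and IFI44 of 0.767, while IFITM3 had -0.837. With deviations taken from group means, the mean pairwise r was 0.024 for members and 0.038 for all genes.

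Among tested members with a promoter window, those with an ISRE core did not stand above those without it. In TIS sEV vs No sEV the median log2 fold change was 0.06 for the 22 tested members with a match and 0.07 for the 10 without. In Cont sEV vs No sEV these medians were 0.0005 and 0.01. The 7 members without a window, USP18, IRF7, IFIT2, OAS2, OASL, IFITM2 and MX2, are left out of this split. Of these, OASL and IFIT2 had the highest log2 fold changes of all tested members in Cont sEV vs No sEV.

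The machinery upstream of the members was transcribed while nearly all interferon genes were listed at 0. Of 22 interferon genes of types I, II and III, 21 were listed at 0 TPM in all 9 libraries, IFNB1 and IFNG among them, and IFNL1 had 0.0743 TPM in Cont sEV replicate 3, a group mean of 0.0248 TPM, and was listed at 0 in the other groups. The 10 receptor subunits, kinases and the STAT protein that act first were all tested. Their leading members were TYK2, at 64.5, 72.5 and 75.9 TPM in the No, Cont and TIS sEV groups, and JAK1, at 56.9, 59.0 and 60.3 TPM. None of the 10 passed in any comparison. In TIS sEV vs No sEV 1 of them, TYK2, had an unadjusted p under 0.05, as had 7.97% of all genes. Its TIS sEV libraries, at 71.9, 88.0 and 67.9 TPM, overlapped those of No sEV. Of 16 genes that sense nucleic acid or relay that signal, 12 were tested and 0 passed. In TIS sEV vs Cont sEV 4 of these were higher and 8 lower, where 59.6% of all genes were higher. IKBKE was lower there at an unadjusted p under 0.05, as were 2.93% of all genes. The TIS sEV libraries lay wholly below Cont sEV for IKBKE and wholly above for TICAM1, as for 4.47% and 10.9% of all genes. In the other comparisons 0 of the 12 reached that threshold. IRF3, the factor that switches on interferon genes, was at 69.6 to 74.9 TPM, and the DNA-sensing adaptor STING1 at 29.3 to 30.8 TPM. Of 12 negative regulators, all tested, 0 passed, with the phosphatase genes PTPN11 at 136 to 141 TPM and PTPN2 at 61.0 to 61.8 TPM.

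A further 42 interferon-stimulated genes outside the members were also examined. Of these, 35 were tested and 0 passed. In TIS sEV vs No sEV 24 were higher (68.6%, against 79.5% of members and 66.7% of all genes), with a median of 0.03 beside 0.03 over all genes. The TIS sEV libraries lay wholly above No sEV for 3 (8.6%, against 23.1% of members and 11.3% of all genes). They lay wholly below for 2 of the 35, where 2.77% of all genes did so. At an unadjusted p under 0.05 in limma's test, 2 were higher and 0 lower in this comparison, against 6.33% and 1.64% of all genes. In Cont sEV vs No sEV 0 reached that threshold, against 6.03% of all genes. In TIS sEV vs Cont sEV 22 were higher (62.9%, against 59.6% of all genes), with a median of 0.02. PML and LY6E were higher at an unadjusted p under 0.05 and 0 were lower, against 7.07% and 2.93% of all genes. The TIS sEV libraries lay wholly above Cont sEV for 3 and wholly below for 2, against 10.9% and 4.47% of all genes. Those of PML lay above No sEV as well. The most abundant were LGALS3BP, a secreted glycoprotein gene, at 402 to 423 TPM, and the DNA sensor gene IFI16, at 151 to 154 TPM. The lowest adjusted p of this list was 0.366 (limma).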

How the data were processed

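The authors deposited 1 table of TPM per gene, with 9 library columns that each sum to 1000000, and all were used. Read depth cannot be recovered from TPM and is unknown here, and no count model was fitted. Salmon 1.4.0, Trim Galore 0.6.6, FastQC 0.11.9 and DESeq2 1.28.0 are named, with build GRCh38.p13, per the submitters' processing notes. No source used here names the annotation release. Symbols were matched by Ensembl ID (99.51% of IDs), positions come from GENCODE 29 and promoter windows from RefSeq. Distances in promoters are counted from the RefSeq gene start. For some members, among them ISG15, IFITM1 and IFITM3, that start lies within the gene's GENCODE 29 span.

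Values were transformed to log2(TPM + 1), which understates fold changes of low genes, and a gene was kept where 3 or more libraries reached 1 TPM. All 9 libraries entered 1 fit with a variance trend (limma 3.58.1, R 4.3.3). Tests were two-sided and adjusted by Benjamini-Hochberg over 13879 genes within a comparison at 0.05. The steps were tested on simulated data. Replicate numbers were not used to pair the libraries in the main fit. Deviations of same-numbered libraries correlated at -0.048 to 0.079 over 9 pairs. That shows no strong shared effect but cannot show whether the replicates were run as sets. Values in all libraries are printed for members with an unadjusted p under 0.05 and for the most abundant member of each functional group. DDX60, STAT2 and the members counted by name fall outside this rule and were chosen after their values were seen. The planned protein sequences were not used here. Members, lists and tests were chosen with earlier results of these data known. Shared transcript stretches were counted as 31-mers of GENCODE 29 transcripts, sense strand. Alternatives are given in the closing section. Figures were drawn with matplotlib 3.10.9.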

Additional observations from a re-analysis of the deposited data

How the results depend on the processing

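Under 20 alternatives (other pseudocounts, filters, scalings, a constant prior variance, weighted libraries, fits on the libraries compared alone, mitochondrially encoded genes left out, the replicate number as a block and each library left out) 0 interferon-stimulated genes passed in any comparison. The 13 log2 fold changes of single members with an unadjusted p under 0.05 kept their direction in all 260 refits. They were chosen by that p-value in the same libraries, so a kept direction was likely beforehand and is not independent support. The adjusted p of ISG15 in TIS sEV vs Cont sEV ranged from 0.144 to 0.529, and that of IFI44 in TIS sEV vs No sEV from 0.243 to 0.623. The members' median of 0.0574 in TIS sEV vs No sEV became 0.0230 after median-of-ratios rescaling and 0.0258 after quantile normalization, and 0.0523 to 0.0673 with 1 library left out. The median of 0.0170 in TIS sEV vs Cont sEV became -0.0044 after median-of-ratios rescaling (0.0062 to 0.0326 with 1 library left out). That of 0.0195 in Cont sEV vs No sEV became -0.0101 after quantile normalization (0.0019 to 0.0464 with 1 library left out).

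Over all genes, the 13 calls in TIS sEV vs Cont sEV (6 higher) became 2 with a constant prior variance and 3 with only the libraries compared, and 2 to 13 with 1 library left out. The 1 call in TIS sEV vs No sEV became 9 with no filter, 0 with a constant prior variance and 2 with only the libraries compared, and 1 to 2 with 1 library left out. The count of 0 in Cont sEV vs No sEV became 7 with no filter and 1 with a minimum of 5 TPM, and 0 to 1 with 1 library left out. The F test's 3 calls became 13 with no filter, 11 with a minimum of 5 TPM, and 6 after quantile normalization or without mitochondrially encoded genes, and 2 to 4 with 1 library left out. The cause of these shifts was not tested. With the replicate block there were 9, 1 and 0 calls in the 3 comparisons and 3 in the F test, with 0 members among them. With the depth unknown, no detection limit can be given for members of low level such as CXCL10.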
